A study of Mus musculus with 12 samples.

Results

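Long noncoding RNA (lncRNA) loci are transcribed regions whose RNA is not assigned a protein product. The deposited gene table gave 594 loci an lncRNA type, and 588 of them held at least 1 read in the 12 libraries, out of 26299 genes and loci with reads. Of the 588, 239 had an entry in Ensembl or NONCODE, a catalogue of noncoding RNAs, and are called known below. The other 349 had none and are called unlisted. RNA had been sequenced from MODE-K, a wild-type line labelled as mouse small intestine epithelium, in 3 libraries a group. The groups were cells taken 48 h after 12 Gy of gamma rays from a cobalt source (12Gy_48h), 24 h after 12 Gy (12Gy_24h) and 48 h after 4 Gy (4Gy_48h), and cells given no radiation (control). The treatment label of the control libraries gives no harvest time. All 4 groups are 1 line in culture, and dose cannot be told apart from time in culture in any comparison with control. Nothing in the labels says that the 3 libraries of a group came from separate cultures, so each p-value reflects variation among libraries that could be technical alone.

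Libraries held 3616416 to 4831641 reads, of which 67425 to 121230 fell at lncRNA loci. Markers of epithelium were nearly absent: of 8 listed, Krt18 averaged 7.61 CPM, read counts scaled to the library total, no other exceeded 0.218 and Cldn7 was at 0. Their summed level was 7.52 to 9.1 CPM at 12Gy_48h, 11.9 to 16.7 at 12Gy_24h, 5.71 to 7.39 at 4Gy_48h and 1.32 to 5.59 in control. The 7 listed fibroblast and mesenchymal markers summed to 252 to 314 CPM at 12Gy_48h, 273 to 336 at 12Gy_24h, 256 to 285 at 4Gy_48h and 183 to 201 in control, mostly Col1a2 at 247 CPM on average. The part of these markers in the results below was not tested. The 6 immune markers summed to 11.2 CPM at most, with 3 of them at 0, and the 4 endothelial markers to 1.11 CPM at most.

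Some lncRNAs act in the nucleus on chromatin or on the transcription of nearby genes, and others act in the cytoplasm on mRNA and translation. A further class, the small nucleolar RNA (snoRNA) host genes, carries snoRNAs in its introns. Those snoRNAs guide the chemical modification of ribosomal RNA, while the spliced host RNA of several such genes is bound by ribosomes and degraded. In the gut epithelium, lncRNAs are known for parts in stem cell renewal, inflammation and the response to DNA damage.

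Among the 239 known loci, 177 carried an Ensembl identifier and 62 a NONCODE identifier alone. Abundance was very uneven. The 15 most abundant loci held 76.15% of all lncRNA reads and the single highest, NONMMUG041885.2, held 33.64%. NONMMUG041885.2, whose closest protein match in the deposited annotation was a retroviral gag-pro-pol polyprotein, was the highest locus in every group. A locus had a median of 142.5 reads over all 12 libraries together. Tests could be made on 379 loci, 183 known and 196 unlisted, which held 99.0% of lncRNA reads. The other 209 had at most 106 reads in all 12 libraries and are not tested here. Several lncRNAs common in other tissues, Malat1, Neat1, Meg3, H19 and Xist among them, were not analysed here.

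**Figure D1:**
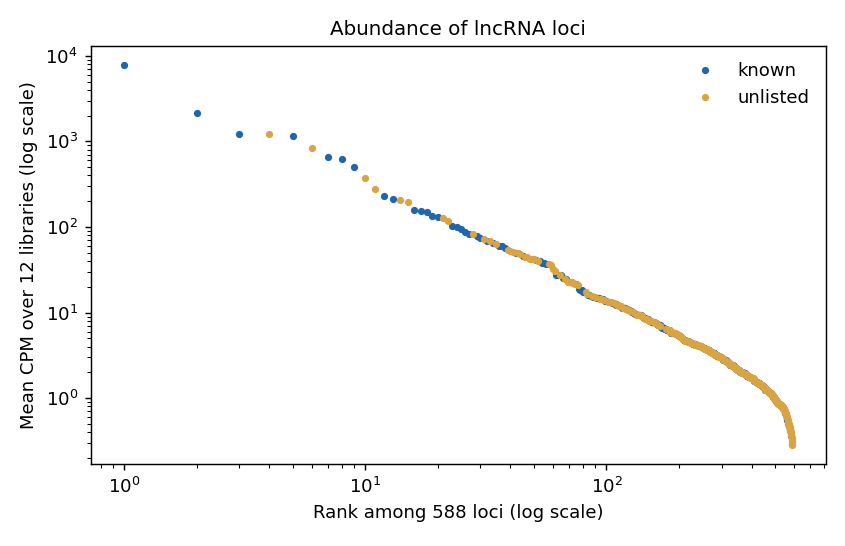
Mean CPM over the 12 libraries (vertical, log scale) of each of the 588 lncRNA loci against its rank (horizontal, log scale), with known and unlisted loci in different colours. The highest locus stands above all others, and both kinds occur along the whole range.

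The most abundant loci with a gene symbol were snoRNA host genes, and the sequence around their start sites is shown because transcripts of many such host genes are known to begin with a run of C and T, the 5′ terminal oligopyrimidine tract that puts translation under growth control. Capitals mark an unbroken run of at least 5 bases, each C or T, that includes the first transcribed base. Each window has 30 bases before that base and 30 from it onwards, on the transcribed strand, from RefSeq on GRCm38.p6. First come host genes that fell in at least 1 comparison with control, then 3 that rose. Of the 12 host genes called against control 11 are shown: Epb41l4aos, which fell, was left out and its start site was not searched. Gas5 has a pair of start sites in RefSeq.
Gas5, chr1:161034571-161034630, plus strand: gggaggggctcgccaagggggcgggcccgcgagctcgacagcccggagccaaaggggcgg
Gas5, chr1:161035136-161035195, plus strand: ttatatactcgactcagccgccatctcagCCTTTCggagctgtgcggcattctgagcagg
2410006H16Rik, chr11:62602847-62602906, plus strand: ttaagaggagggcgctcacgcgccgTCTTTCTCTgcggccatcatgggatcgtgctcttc
Zfas1, chr2:167062904-167062963, plus strand: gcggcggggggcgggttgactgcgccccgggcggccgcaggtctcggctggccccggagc
Snhg8, chr3:123508307-123508366, minus strand: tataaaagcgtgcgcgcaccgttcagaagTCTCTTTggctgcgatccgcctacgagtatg
Snhg12, chr4:132308648-132308707, plus strand: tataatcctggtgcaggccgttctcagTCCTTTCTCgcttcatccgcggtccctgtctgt
Snhg15, chr11:6528731-6528790, minus strand: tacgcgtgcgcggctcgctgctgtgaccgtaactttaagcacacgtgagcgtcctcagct
Snhg1, chr19:8723457-8723516, plus strand: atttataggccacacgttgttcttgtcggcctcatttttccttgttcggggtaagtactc
Snhg5, chr9:88522868-88522927, minus strand: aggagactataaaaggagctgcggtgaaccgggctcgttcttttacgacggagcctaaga
Snhg20, chr11:117076753-117076812, plus strand: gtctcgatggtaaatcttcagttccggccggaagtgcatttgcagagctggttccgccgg
Snhg18, chr15:32244633-32244692, minus strand: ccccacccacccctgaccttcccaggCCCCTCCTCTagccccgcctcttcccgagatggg
Dancr, chr5:74093030-74093089, plus strand: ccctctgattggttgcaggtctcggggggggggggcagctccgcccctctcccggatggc
Such a run was present at 5 of these 11 loci: Gas5, 2410006H16Rik, Snhg8 and Snhg12 among those that fell, and Snhg18 among those that rose. Gas5 held it at the second start site shown only. Counted by start site, 6 of 15 sites searched for snoRNA host genes held one, among them a site of Snhg17, which is not shown. Over all RefSeq start sites of mouse genes, 3330 of 32851 (10.1%) held one. The run was searched on the transcribed strand only.

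The share of all reads at lncRNA loci was lower in each irradiated group than in control. It was 2.43%, 2.45% and 2.23% at 12Gy_48h, 1.85%, 1.92% and 1.78% at 12Gy_24h, 2.33%, 2.31% and 2.39% at 4Gy_48h, and 2.51%, 2.75% and 2.85% in control. No irradiated library reached the lowest control. The mean was 2.37% ± 0.12 at 12Gy_48h, 1.85% ± 0.0681 at 12Gy_24h, 2.34% ± 0.0426 at 4Gy_48h and 2.70% ± 0.173 in control (SD, n = 3 each). Each difference from control had an exact two-sided permutation p of 0.1, the smallest that 3 against 3 libraries allow. The share was higher at 12Gy_48h than at 12Gy_24h by 0.516 percentage points, with no overlap (exact permutation p = 0.1). At 48 h, the 12 Gy and 4 Gy groups overlapped and differed by 0.0246 percentage points (exact permutation p = 0.8). In bulk RNA, fewer cells that make a transcript and less of it per cell cannot be told apart.

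Between known and unlisted loci, only the share of unlisted loci stood apart from control at every dose and time. They held 0.540% of reads at 12Gy_48h, 0.408% at 12Gy_24h, 0.505% at 4Gy_48h and 0.735% in control, and no irradiated library overlapped a control (exact permutation p = 0.1 in each comparison). Known loci held 1.83% at 12Gy_48h, 1.44% at 12Gy_24h, 1.84% at 4Gy_48h and 1.97% in control, and only the 12Gy_24h libraries lay wholly below control (exact permutation p = 0.1, against 0.3 in both other comparisons). Within the unlisted share lay loci with a match to KEGG entry K11969, a class described further down. They held 0.251% of reads at 12Gy_48h, 0.140% at 12Gy_24h, 0.251% at 4Gy_48h and 0.431% in control. Within the known share, NONMMUG041885.2 alone held 0.900%, 0.645%, 0.834% and 0.745% in the same order. Whether known and unlisted loci differ in their change from control was not tested.

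The mean share of NONMMUG041885.2 was above control in both 48 h groups, where that of the remaining lncRNA reads was below. Both shares were lowest at 12Gy_24h, and the difference between them was not tested. NONMMUG041885.2 held 0.912%, 0.917% and 0.870% of reads at 12Gy_48h, 0.645%, 0.700% and 0.589% at 12Gy_24h, 0.820%, 0.935% and 0.747% at 4Gy_48h, and 0.758%, 0.777% and 0.700% in control. The 12Gy_48h libraries were above every control library, and both other irradiated groups overlapped control. After scaling by the trimmed mean of M-values (TMM), which sets libraries on a common level, it rose by 0.31 ± 0.08 on the log2 scale (± SE) at 12Gy_48h against 12Gy_24h (edgeR adjusted p = 0.00762). That call was lost without 12Gy_24h replicate 3 (adjusted p = 0.173) or without 12Gy_48h replicate 2 (adjusted p = 0.0595), and no comparison with control was called with every row in the scaling. With libraries scaled on annotated loci alone, a choice described further down, it fell at 12Gy_24h against control by 0.35 on the log2 scale (adjusted p = 0.0035). Without this locus, the share of the remaining lncRNA reads was 1.48% at 12Gy_48h, 1.21% at 12Gy_24h, 1.52% at 4Gy_48h and 1.97% in control, with no overlap between any irradiated group and control.

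**Figure D2:**
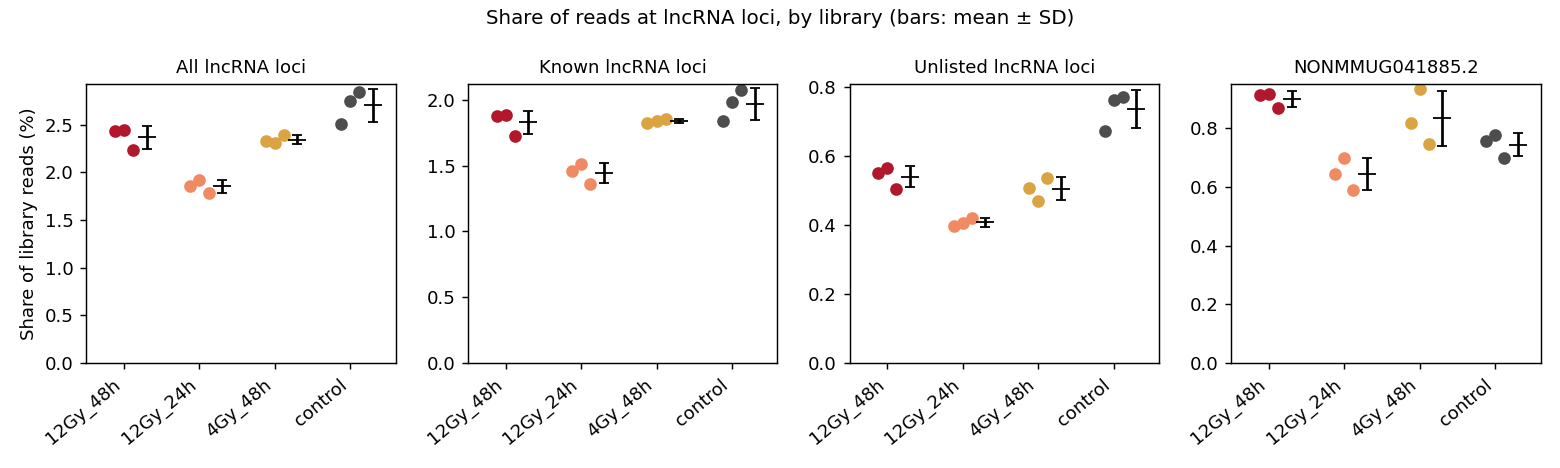
Percent of each library's reads (vertical) at all lncRNA loci, known loci, unlisted loci and NONMMUG041885.2, by group, with each library as a point and the mean ± SD beside it. All irradiated libraries lie below the controls for all loci and for unlisted loci, and the 12Gy_48h libraries lie above them for NONMMUG041885.2.

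Locus by locus, falls outnumbered rises against control at each dose and time. Calls were made with edgeR at an adjusted p under 0.05, over all 15086 genes and loci tested. At 12Gy_48h against control, 33 lncRNA loci rose and 72 fell of 379, where 12.9% of all genes tested rose and 20.2% fell. At 12Gy_24h against control, 63 rose and 95 fell, where 18.5% of all genes tested rose and 29.4% fell. At 4Gy_48h against control, 10 rose and 45 fell, where 4.53% of all genes tested rose and 13.0% fell. With this scaling, the shares of lncRNA loci that rose and that fell were both below those of all genes in each of these 3 comparisons; for the falls, the scaling on annotated loci given below turned that round. The comparisons with control share the same 3 control libraries. At 12Gy_48h against 12Gy_24h, 55 rose and 65 fell, where 20.6% of all genes tested rose and 11.4% fell. At 12Gy_48h against 4Gy_48h, 11 rose and 6 fell, where 2.19% of all genes tested rose and 2.49% fell, and without 12Gy_48h replicate 2 edgeR called no lncRNA locus in either direction, with 34 higher and 28 lower at an unadjusted p under 0.05.

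The reference for these changes matters for lncRNA loci. All genes tested include 4898 unannotated loci, the deposited type New_gene, whose median log2 change was -0.91 at 12Gy_48h, -1.87 at 12Gy_24h and -0.70 at 4Gy_48h against control. With them in the scaling, the median of known genes stood at 0.20, 0.23 and 0.14 in those comparisons. The lncRNA median was then -0.18 at 12Gy_48h, -0.14 at 12Gy_24h and -0.24 at 4Gy_48h. Scaled without the unannotated loci, the median of known genes stood at 0.02, 0.00 and -0.00 and that of lncRNA loci at -0.36, -0.37 and -0.38. That scaling, named in this text by annotated loci alone, left out the type New_gene only and kept the unlisted lncRNA loci. With it, 381 lncRNA loci, 185 known and 196 unlisted, were tested among 10197 genes. At 12Gy_48h against control 16 rose and 87 fell, where 7.02% of all genes tested rose and 8.35% fell. At 12Gy_24h 31 rose and 112 fell, where 9.62% of all genes tested rose and 8.68% fell. At 4Gy_48h 1 rose and 30 fell, where 0.824% of all genes tested rose and 0.892% fell. With the unannotated loci left out of all genes as well, the shares of lncRNA loci that fell were above those of all genes in the 3 comparisons. The shares that rose were below. All further values use the scaling with every row, and a call that the other scaling changes is named.

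Most snoRNA host genes that changed against control fell. Of 24 listed, 15 had a locus of lncRNA type and all 15 could be tested. Here and for the lists below, genes were matched to loci of that type alone, so a listed gene under another type is not counted. At 12Gy_48h against control 2 rose and 9 fell (median log2 change -0.38), where 12.9% of all genes tested rose and 20.2% fell. At 12Gy_24h 2 rose and 7 fell (median -0.30), where 18.5% rose and 29.4% fell. At 4Gy_48h 1 rose and 4 fell (median -0.10), where 4.53% rose and 13.0% fell. Over all genes tested, the medians were 0.01, 0.01 and 0.01. Of genes of type Known_gene, 18.2%, 26.5% and 6.21% rose and 3.74%, 3.99% and 0.877% fell. With the scaling on annotated loci alone, 2 host genes rose and 9 fell at 12Gy_48h, 2 rose and 9 fell at 12Gy_24h, and 0 rose and 3 fell at 4Gy_48h. Together the 15 host genes held 0.603% of reads at 12Gy_48h, 0.483% at 12Gy_24h, 0.688% at 4Gy_48h and 0.867% in control. Both 12 Gy groups lay wholly below control (exact permutation p = 0.1 each) and the 4Gy_48h group overlapped it (exact permutation p = 0.2). At 12Gy_48h against 12Gy_24h, 2410006H16Rik, Snhg15 and Snhg18 rose and Dancr, Snhg20 and Snhg5 fell, where 20.6% of all genes tested rose and 11.4% fell. Of these 6 calls only that of Snhg15 held without each library in turn, and with the scaling on annotated loci alone Snhg20 was not called (-0.37, adjusted p = 0.065). At 12Gy_48h against 4Gy_48h, Snhg5 fell and no host gene rose (0 by edgeR, 0 at an unadjusted p under 0.05 and 0 by DESeq2).

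Gas5, the host of many C/D-box snoRNAs and known to build up when growth stops, was the most abundant (GENCODE processed transcript, chr1:161034422-161038539, GRCm38). It had 1950, 1946 and 1581 CPM at 12Gy_48h, 1535, 1494 and 1625 at 12Gy_24h, 2132, 1830 and 2479 at 4Gy_48h, and 2802, 2768 and 3371 in control. Every irradiated library was below every control library. The log2 change was -0.71 ± 0.11 at 12Gy_48h (adjusted p = 0.000217), -0.94 ± 0.11 at 12Gy_24h (adjusted p = 4.5e-06) and -0.47 ± 0.11 at 4Gy_48h (adjusted p = 0.00865). The last was not called without 4Gy_48h replicate 2 (adjusted p = 0.0601) or control replicate 3 (adjusted p = 0.0654). Gas5 overlaps Zbtb37 on the opposite strand, and strand use in the counting is not given in the sources used here, so reads of overlapping genes cannot be told apart. Zbtb37 itself, a zinc finger gene, had log2 changes of 0.10, 0.40 and 0.34 in those comparisons, none called.

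Several other abundant hosts fell after 12 Gy. Zfas1, a host named for its place next to Znfx1, had 950, 920 and 821 CPM at 12Gy_48h, 942, 889 and 851 at 12Gy_24h, 1289, 1086 and 1528 at 4Gy_48h, and 1184, 1560 and 1986 in control. Both 12 Gy groups were below control (-0.81 ± 0.15, adjusted p = 0.000674, and -0.82 ± 0.15, adjusted p = 0.000266), while 4Gy_48h overlapped control (-0.28 ± 0.15, adjusted p = 0.222). With the scaling on annotated loci alone it was also lower at 12Gy_48h than at 4Gy_48h (-0.58, adjusted p = 0.036). Znfx1, which overlaps it on the opposite strand, changed the other way at 12Gy_48h, by 0.73 (adjusted p = 0.0491). 2410006H16Rik had 1201, 1167 and 877 CPM at 12Gy_48h and 842, 764 and 768 at 12Gy_24h, against 1521, 1607 and 2083 in control. It fell by 0.68 ± 0.15 (adjusted p = 0.00311) and by 1.13 ± 0.16 (adjusted p = 1.67e-05) on the log2 scale, and its 4Gy_48h change of -0.39 was not called (adjusted p = 0.0906).

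Snhg8 and Snhg12 fell in each irradiated group. Snhg8 had 566, 566 and 532 CPM at 12Gy_48h, 575, 599 and 621 at 12Gy_24h, 597, 592 and 619 at 4Gy_48h, and 781, 727 and 800 in control, with no overlap. Its log2 changes were -0.47, -0.36 and -0.35 (SE 0.08 each, adjusted p = 0.000415, 0.0015 and 0.00728). Snhg12 averaged 114 ± 20.3 CPM at 12Gy_48h, 94.0 ± 9.46 at 12Gy_24h and 133 ± 32.8 at 4Gy_48h, against 197 ± 35 in control (SD, n = 3 each). Its log2 changes were -0.79, -1.07 and -0.57 (adjusted p = 0.00275, 0.000112 and 0.0327). At 4Gy_48h one Snhg12 library, at 170 CPM, exceeded the lowest control, at 165 CPM, and the call was lost without either of 4Gy_48h replicates 1 and 2 or control replicates 2 and 3 (adjusted p = 0.128, 0.157, 0.076 and 0.179), and with the scaling on annotated loci alone (adjusted p = 0.0502).

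Snhg15, a host studied for its short-lived RNA and its rise in several kinds of cell stress, fell most at 24 h. It had 158, 175 and 160 CPM at 12Gy_48h, 94.0, 95.3 and 95.4 at 12Gy_24h, 141, 133 and 178 at 4Gy_48h, and 196, 196 and 251 in control. The 12Gy_24h libraries were the lowest of all 12, and no irradiated library overlapped control. Its log2 change was -0.38 ± 0.13 at 12Gy_48h (adjusted p = 0.0309), -1.17 ± 0.13 at 12Gy_24h (adjusted p = 1.88e-06) and -0.51 ± 0.13 at 4Gy_48h (adjusted p = 0.0116). Between the 12 Gy times it was higher at 12Gy_48h by 0.79 ± 0.13 (adjusted p = 0.00031). Without control replicate 3 the 48 h changes were not called (adjusted p = 0.221 at 12Gy_48h and 0.0923 at 4Gy_48h), and the 12Gy_48h call was also lost without any 1 of its own replicates (adjusted p = 0.111, 0.07 and 0.0946). The 4Gy_48h call was also lost without 4Gy_48h replicate 1 (adjusted p = 0.0616) or 2 (adjusted p = 0.0725).

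The remaining hosts that fell did so by smaller amounts. Epb41l4aos fell by 0.41 ± 0.12 at 12Gy_48h (adjusted p = 0.014) and by 0.44 ± 0.12 at 12Gy_24h (adjusted p = 0.00613). Snhg1, long known as the U22 host gene, fell by 0.34 ± 0.11 at 12Gy_48h (adjusted p = 0.025), and it had 464, 417 and 418 CPM there against 491, 522 and 626 in control. Without control replicate 3, neither gene was called at 12Gy_48h (adjusted p = 0.135 for Epb41l4aos and 0.201 for Snhg1) nor Epb41l4aos at 12Gy_24h (adjusted p = 0.129). The 12Gy_48h calls were also lost without its replicate 2 (Epb41l4aos 0.0552, Snhg1 0.136) or 3 (Epb41l4aos 0.0751, Snhg1 0.0902), as was that of Epb41l4aos at 12Gy_24h without its replicate 2 (adjusted p = 0.0923). Snhg1 was called at 12Gy_24h with the scaling on annotated loci alone (-0.40, adjusted p = 0.018), not with every row (-0.17, adjusted p = 0.212).

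Snhg5 was the host that differed between the doses at 48 h. It had 74.8, 69.5 and 61.2 CPM at 12Gy_48h, 88.6, 89.0 and 90.4 at 12Gy_24h, 89.6, 102 and 110 at 4Gy_48h, and 103, 87.6 and 82.2 in control. Every 12Gy_48h library was below all 9 others. The 12Gy_48h group was lower by 0.55 ± 0.13 against 4Gy_48h (adjusted p = 0.023), by 0.38 ± 0.13 against 12Gy_24h (adjusted p = 0.0297) and by 0.41 ± 0.13 against control (adjusted p = 0.0195). Leaving out 12Gy_48h replicate 3 ended all 3 calls (adjusted p = 0.0807, 0.105 and 0.101). The dose call was also lost without 12Gy_48h replicate 2 (0.0894) or 4Gy_48h replicates 2 (0.0591) or 3 (0.0956), and the call against control without 12Gy_48h replicate 2 (0.0682) or control replicate 1 (0.0793). The call against 12Gy_24h was also lost without 12Gy_24h replicate 1 (adjusted p = 0.059) and with the scaling on annotated loci alone (adjusted p = 0.057).

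A few hosts of lower abundance rose. Snhg20 had 34.8, 45.1 and 39.7 CPM at 12Gy_48h, 49.4, 55.7 and 55.1 at 12Gy_24h, 29.1, 42.2 and 34.5 at 4Gy_48h, and 23.4, 25.4 and 24.1 in control. Every irradiated library was above every control library, with log2 changes of 0.72 ± 0.15 (adjusted p = 0.00201), 1.14 ± 0.15 (adjusted p = 1.15e-05) and 0.54 ± 0.15 (adjusted p = 0.0228). The 4Gy_48h call was lost without 4Gy_48h replicate 2 (adjusted p = 0.128), without control replicate 3 (adjusted p = 0.0518) and with the scaling on annotated loci alone (0.40, adjusted p = 0.2). Snhg18 had 76.7, 85.1 and 68.2 CPM at 12Gy_48h against 43.8, 52.5 and 46.6 in control, a rise of 0.69 ± 0.17 (adjusted p = 0.00476), and its 12Gy_24h libraries (49.3 to 51.5 CPM) overlapped control (0.09, adjusted p = 0.689). Dancr, known for keeping epidermal progenitor cells undifferentiated, rose at 12Gy_24h, where it had 20.7, 24.2 and 20.1 CPM against 13.1, 12.5 and 11.5 in control (0.80 ± 0.19, adjusted p = 0.00212).

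Snhg6, Snhg10 and Snhg17 were called in no comparison, with log2 changes against control of -0.30 to 0.39. Snhg17 was called at 12Gy_24h only with the scaling on annotated loci alone (-0.53, adjusted p = 0.008). 1110038B12Rik, which was not on the list, is also abundant and had 641, 642 and 574 CPM at 12Gy_48h, 580, 605 and 557 at 12Gy_24h, 717, 614 and 762 at 4Gy_48h, and 697, 693 and 881 in control. It fell at 12Gy_24h by 0.38 ± 0.11 (adjusted p = 0.00825), a call lost without control replicate 3 (adjusted p = 0.167), without 12Gy_24h replicate 2 (adjusted p = 0.0643) or without 12Gy_24h replicate 3 (adjusted p = 0.139). It was called at 12Gy_48h with the scaling on annotated loci alone (-0.47, adjusted p = 0.0085), not with every row (-0.29, adjusted p = 0.0512).

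**Figure D3:**
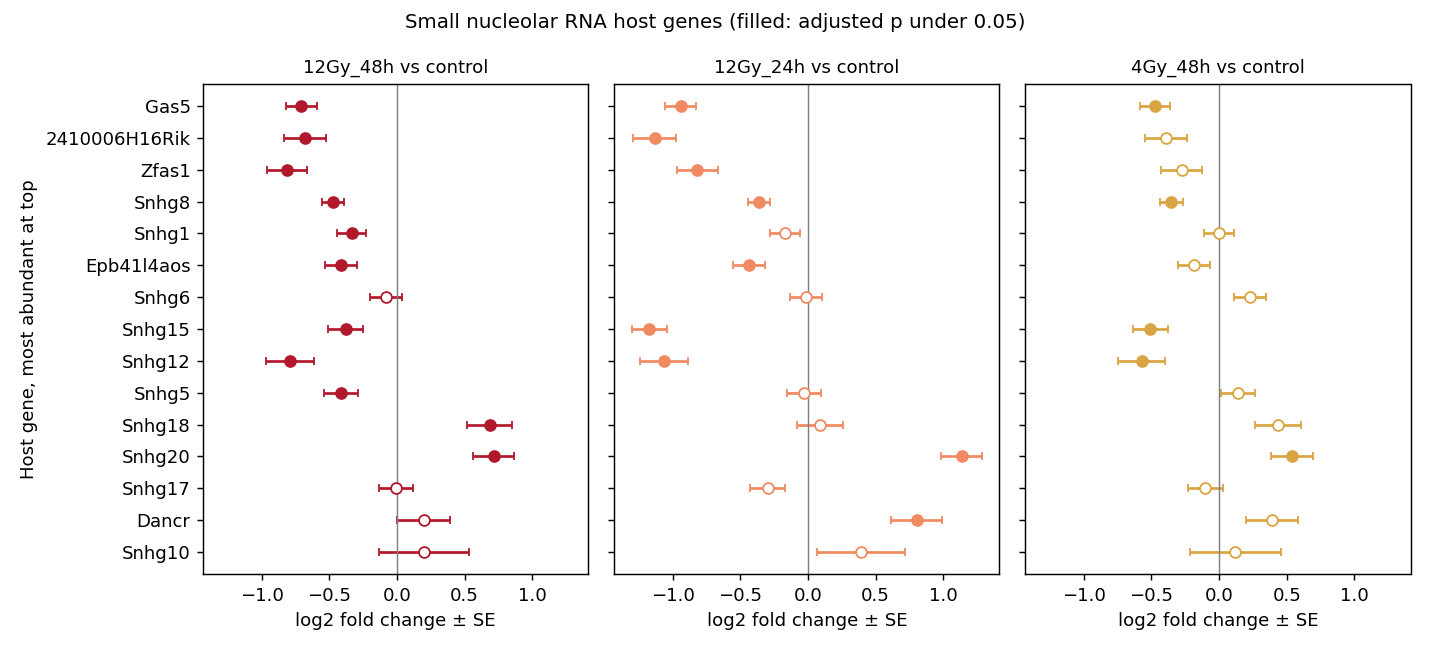
Log2 fold change ± SE (horizontal) of the 15 snoRNA host genes in each irradiated group against control, from the most abundant gene at the top to the least at the bottom, with filled points for adjusted p under 0.05. Gas5, Snhg8, Snhg12 and Snhg15 lie below 0 and filled in all 3 panels, and Snhg20 lies above 0 and filled in all 3.

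The lncRNAs tied to p53, the transcription factor that responds to DNA damage, were a small list here. Of 14 listed, 6 had a locus and all 6 were tested. Gas5, Snhg1 and Snhg15, described above, are among the 6. At 12Gy_48h 0 rose and 3 fell, where 12.9% of all genes tested rose and 20.2% fell. At 12Gy_24h 2 rose and 2 fell, where 18.5% rose and 29.4% fell. At 4Gy_48h 0 rose and 2 fell, where 4.53% rose and 13.0% fell. The counts of 0 by edgeR were also 0 at an unadjusted p under 0.05 and by DESeq2. With 6 loci, these shares of all genes amount to 1 or 2 loci at most in either direction. Trp53cor1, known as lincRNA-p21 and a direct p53 target that lies next to Cdkn1a on chromosome 17, had 2.09, 4.58 and 3.40 CPM at 12Gy_48h, 2.65, 2.20 and 2.04 at 12Gy_24h, 2.08, 2.47 and 3.78 at 4Gy_48h, and 2.58, 3.33 and 1.88 in control. The groups overlapped throughout and its log2 changes of 0.37, -0.17 and 0.09 were not called (adjusted p = 0.471, 0.754 and 0.913). Cdkn1a, the cell cycle inhibitor induced by p53, was likewise not called, at -0.07, -0.10 and -0.26 (adjusted p = 0.741, 0.564 and 0.208).

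The pair of rises in that list, at 12Gy_24h, were Lockd and Mir22hg. Lockd, a lncRNA downstream of the cell cycle inhibitor Cdkn1b, had 171, 206 and 193 CPM at 12Gy_24h against 159, 134 and 124 in control (0.45 ± 0.12, adjusted p = 0.00443). It had 130, 141 and 146 CPM at 12Gy_48h, lower than at 12Gy_24h by 0.45 (adjusted p = 0.00916). Mir22hg, the host of miR-22, had 6.63, 10.7 and 10.2 CPM at 12Gy_24h against 3.22, 6.15 and 6.70 in control, values that overlapped (0.80 ± 0.32, adjusted p = 0.0463). With the scaling on annotated loci alone, neither was called at 12Gy_24h against control (adjusted p = 0.17 for Lockd and 0.23 for Mir22hg), and Mir22hg was also not called without control replicate 1 (adjusted p = 0.181), 12Gy_24h replicate 2 (0.086) or 12Gy_24h replicate 3 (0.0622). Mir22hg was the 1 listed microRNA host gene with a locus, of 21.

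Among 8 listed immune and inflammatory lncRNAs, Ptgs2os2 and AW112010 had loci. Ptgs2os2 is a lincRNA on chromosome 1 whose nearest coding gene is Ptgs2, the inducible cyclooxygenase. It had 6.28, 7.90 and 9.93 CPM at 12Gy_48h, 16.5, 12.1 and 17.2 at 12Gy_24h, 7.53, 6.91 and 6.47 at 4Gy_48h, and 5.80, 3.33 and 2.95 in control. All irradiated libraries were above all controls. The rise was 0.96 ± 0.28 at 12Gy_48h (adjusted p = 0.0153) and 1.88 ± 0.26 at 12Gy_24h (adjusted p = 1.94e-05), and the 4Gy_48h change of 0.76 was not called (adjusted p = 0.0802). The 12Gy_48h call was lost with the scaling on annotated loci alone (0.78, adjusted p = 0.063), without 12Gy_48h replicate 3 (0.0702) and without control replicate 3 (0.0528). Ptgs2 rose at 12Gy_24h by 0.91 (adjusted p = 0.00214) and was not called at 12Gy_48h (0.40, adjusted p = 0.164). AW112010, an interferon-inducible locus, was too low to test: it had 4, 7 and 6 reads at 12Gy_48h, 1, 3 and 0 at 12Gy_24h, 8, 4 and 1 at 4Gy_48h, and 4, 0 and 3 in control.

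Of 24 lncRNAs of chromatin and nuclear architecture, Jpx and Hotairm1 had loci of lncRNA type. Neither was called in any comparison by edgeR or DESeq2 (1 call at an unadjusted p under 0.05, for Hotairm1 at 12Gy_48h against 4Gy_48h). Snhg11, also on that list, was in the table under another type and was called lower than control by edgeR. Its log2 change was -1.14 at 12Gy_48h (adjusted p = 0.0271), -3.47 at 12Gy_24h (adjusted p = 3.11e-05) and -1.39 at 4Gy_48h (adjusted p = 0.0191). Hotairm1, which lies in the HoxA cluster, had 72.7, 72.3 and 56.2 CPM at 12Gy_48h, 57.1, 68.3 and 52.5 at 12Gy_24h, 55.3, 46.9 and 51.8 at 4Gy_48h, and 58.0, 70.2 and 55.7 in control. Jpx, an activator of Xist, averaged 2.51 to 3.74 CPM over the groups. Of 15 listed regulators of translation and cytoplasmic RNA, Gas5, Dancr and Snhg5 had loci, with the values given above.

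The lncRNA loci can also be divided by the protein database matches that the deposited table lists for them. The deposited annotation gave 39 loci a match to KEGG entry K11969, the ubiquitin ligase ariadne-2, the same entry that 3344 tested unannotated loci carried. Of those 39 lncRNA loci, 28 were tested: at 12Gy_48h 0 rose and 15 fell, at 12Gy_24h 0 rose and 19 fell, and at 4Gy_48h 0 rose and 13 fell against control. Over all genes tested, 20.2%, 29.4% and 13.0% fell in those comparisons, and 12.9%, 18.5% and 4.53% rose. Their median log2 changes were -0.83, -1.25 and -0.76. The unannotated loci with that entry had medians of -0.96, -1.93 and -0.74, and 1936, 2946 and 1345 of the 3344 fell. Unannotated loci without it fell as well, with medians of -0.72, -1.66 and -0.57 and 675, 1008 and 489 falls among 1554 tested. At 12Gy_48h against 12Gy_24h, 8 of the 28 lncRNA loci (28.6%) rose and 0 fell, where 20.6% of all genes tested rose and 11.4% fell. Where edgeR called 0 rises against control, DESeq2 called 0, and 1, 0 and 0 loci were higher at an unadjusted p under 0.05, while at 12Gy_48h against 12Gy_24h 3 were lower at an unadjusted p under 0.05 and 1 by DESeq2. The 39 lncRNA loci held 0.274% of reads at 12Gy_48h, 0.153% at 12Gy_24h, 0.271% at 4Gy_48h and 0.461% in control, with no overlap between irradiated groups and control (exact permutation p = 0.1 each). Snhg15 is the host gene with this match.

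Of the 134 tested loci with no database match, 7 rose and 23 (17.2%) fell at 12Gy_48h, where 12.9% of all genes tested rose and 20.2% fell. At 12Gy_24h 21 rose and 28 (20.9%) fell, where 18.5% of all genes rose and 29.4% fell. At 4Gy_48h 2 rose and 16 (11.9%) fell, where 4.53% of all genes rose and 13.0% fell. The medians were -0.08, -0.17 and -0.21. The 217 with another match had 26 rises and 34 falls at 12Gy_48h, 42 rises and 48 falls at 12Gy_24h, and 8 rises and 16 falls at 4Gy_48h, with medians of -0.15, -0.10 and -0.21. Their falls made up 15.7%, 22.1% and 7.4% of the 217 and their rises 12.0%, 19.4% and 3.7%, to be read against the same shares of all genes. Within them, the 90 unlisted loci had more rises than falls, 16 against 8 at 12Gy_48h, 24 against 15 at 12Gy_24h and 5 against 4 at 4Gy_48h. With the scaling on annotated loci alone, that turned to 8 against 8, 11 against 17 and 0 against 4. With it, 20.6%, 23.5% and 5.1% of 136 tested loci with no match fell. So did 19.8%, 28.1% and 5.5% of the 217 with another match. Of all genes tested with it, which leave out the unannotated loci, 8.35%, 8.68% and 0.892% fell, so both classes then lay above all genes. The difference between these classes was not tested.

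**Figure D4:**
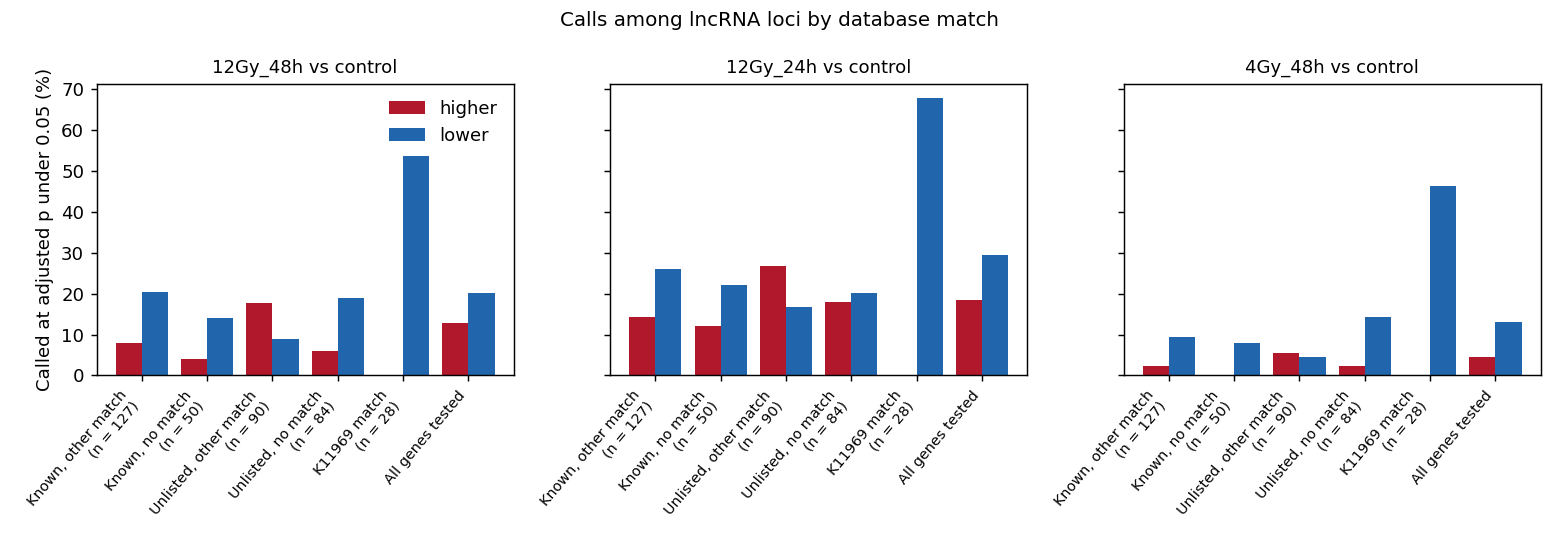
Percent of tested loci called higher or lower (vertical, edgeR adjusted p under 0.05) in each irradiated group against control, for lncRNA loci split by type and database match and, at the right of each panel, for all genes tested. The loci with a K11969 match have no rise in any panel, and 15, 19 and 13 of 28 fell.

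Of the 588 loci, 7 matched proteins of retroelements, and all 7 were tested. They included NONMMUG041885.2, and NONMMUG043691.2 and Ptgs2os2, whose listed match was ORF2, the name of the LINE-1 reverse transcriptase. At 12Gy_48h 2 rose and 0 fell, at 12Gy_24h 3 rose and 1 fell, and at 4Gy_48h 0 rose and 1 fell. Over all genes tested, 12.9%, 18.5% and 4.53% rose in those comparisons and 20.2%, 29.4% and 13.0% fell, and 7 loci are too few to set against these shares. At an unadjusted p under 0.05, 0 were lower at 12Gy_48h and 2 higher at 4Gy_48h, and DESeq2 called 0 in both. NONMMUG043691.2 had 62.5, 69.0 and 60.4 CPM at 12Gy_48h, 11.9, 15.2 and 17.8 at 12Gy_24h, 43.1, 21.5 and 42.9 at 4Gy_48h, and 55.4, 62.2 and 91.9 in control. The 12Gy_24h libraries were the lowest of all 12, and the 12Gy_48h libraries overlapped control. Its log2 change against control was -0.12 ± 0.22 at 12Gy_48h (adjusted p = 0.702), -2.22 ± 0.25 at 12Gy_24h (adjusted p = 2.28e-06) and -0.96 ± 0.23 at 4Gy_48h (adjusted p = 0.00829, and 0.0652 without control replicate 3). It was higher at 12Gy_48h than at 12Gy_24h by 2.10 ± 0.25 (adjusted p = 2.18e-05), and than at 4Gy_48h by 0.84 ± 0.23 (adjusted p = 0.0473), the last lost without any 1 of the 6 libraries compared (adjusted p = 0.0527 to 0.173).

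Gm6329, a lincRNA on chromosome 8 (chr8:45160494-45165219, GRCm38), had the largest difference between the 12 Gy times among the loci named here. It had 5.76, 7.64 and 6.27 CPM at 12Gy_48h, 0.265, 0.551 and 0.583 at 12Gy_24h, 2.34, 2.71 and 1.62 at 4Gy_48h, and 2.79, 3.33 and 4.29 in control. The 12Gy_48h libraries were the highest of all 12 and the 12Gy_24h libraries the lowest. Its log2 change was 3.74 ± 0.42 at 12Gy_48h against 12Gy_24h (adjusted p = 1.12e-05). Against control it was 0.93 ± 0.28 at 12Gy_48h (adjusted p = 0.0194), -2.81 ± 0.46 at 12Gy_24h (adjusted p = 9.83e-05) and -0.61 ± 0.33 at 4Gy_48h (adjusted p = 0.229). The rise at 12Gy_48h was lost with the scaling on annotated loci alone (0.75, adjusted p = 0.076), without 12Gy_48h replicate 2 (0.0734) and without control replicate 1 (0.0701). The 12 Gy group exceeded the 4 Gy group at 48 h by 1.54 ± 0.31 (adjusted p = 0.0123), which was lost without 12Gy_48h replicate 2 (adjusted p = 0.082) or 4Gy_48h replicate 3 (adjusted p = 0.0609).

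Gm15417, annotated as antisense to the transcription factor gene Zbtb7b, fell after 12 Gy. It had 75.9, 73.6 and 79.5 CPM at 12Gy_48h, 49.1, 45.5 and 42.0 at 12Gy_24h, 112, 95.7 and 117 at 4Gy_48h, and 101, 103 and 107 in control. Both 12 Gy groups were below control with no overlap (-0.44 ± 0.11, adjusted p = 0.00763, and -1.18 ± 0.12, adjusted p = 6.19e-07), and 4Gy_48h overlapped it (0.06, adjusted p = 0.75). The 12Gy_48h group was higher than 12Gy_24h by 0.74 ± 0.12 (adjusted p = 0.000246) and lower than 4Gy_48h by 0.50 ± 0.11 (adjusted p = 0.022). Zbtb7b was not called, at 0.43, 0.03 and -0.04 against control. Without 12Gy_48h replicate 2 the 12Gy_48h change against control was not called (adjusted p = 0.0548), and the dose call was lost without either of 12Gy_48h replicates 1 and 2 or 4Gy_48h replicates 1 and 3 (adjusted p = 0.0776, 0.114, 0.0646 and 0.0923).

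Several loci of low abundance were highest at 12Gy_24h. NONMMUG019647.2 had 17.3, 17.8 and 23.3 CPM at 12Gy_48h, 48.3, 54.0 and 57.2 at 12Gy_24h, 18.4, 33.1 and 16.5 at 4Gy_48h, and 21.3, 13.6 and 12.9 in control. It rose by 1.72 ± 0.24 at 12Gy_24h (adjusted p = 1.55e-05) and was lower by 1.45 ± 0.23 at 12Gy_48h against 12Gy_24h (adjusted p = 0.000247). AL805899.1, a lincRNA on chromosome 4, had 3.40, 2.55 and 3.14 CPM at 12Gy_48h, 10.1, 9.37 and 10.5 at 12Gy_24h, 2.08, 2.22 and 3.78 at 4Gy_48h, and 2.79, 3.07 and 4.02 in control (1.60 ± 0.26 at 12Gy_24h, adjusted p = 9.24e-05). For both loci the 12Gy_24h libraries lay above the other 9.

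NONMMUG001758.3, 4930478M13Rik and Ptprtos were also highest at 12Gy_24h. They averaged 6.35 ± 2.11, 19.3 ± 3.71 and 6.37 ± 2.37 CPM at 12Gy_24h (SD, n = 3), against 2.16 ± 1.17, 7.83 ± 2.91 and 2.87 ± 1.07 CPM in control. Their rises at 12Gy_24h were 1.55 ± 0.38 (adjusted p = 0.00256), 1.28 ± 0.31 (adjusted p = 0.00245) and 1.15 ± 0.34 (adjusted p = 0.00972). Ptprtos was not called with the scaling on annotated loci alone (0.92, adjusted p = 0.065). At 12Gy_48h against control, 4930478M13Rik and Ptprtos overlapped control and were not called (-0.61, adjusted p = 0.206, and -0.40, adjusted p = 0.471). 4930478M13Rik is antisense to Dip2b, which was not called in any comparison (0.09 at 12Gy_24h, adjusted p = 0.764).

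4930447F24Rik rose in all 3 irradiated groups. It had 3.92, 3.57 and 4.70 CPM at 12Gy_48h, 4.51, 7.16 and 5.83 at 12Gy_24h, 7.53, 6.17 and 4.86 at 4Gy_48h, and 2.15, 1.54 and 1.07 in control, with no irradiated library overlapping control. Its log2 changes were 1.31 ± 0.35 (adjusted p = 0.00969), 1.83 ± 0.34 (adjusted p = 0.000286) and 1.91 ± 0.33 (adjusted p = 0.000958). It lies on chromosome 9 within Bsn, on the opposite strand, and Bsn had changes of -0.46 (adjusted p = 0.0889), 0.78 (adjusted p = 0.0019) and -0.01 (adjusted p = 0.987). Gm16062, antisense to the signalosome subunit gene Cops3, rose at 12Gy_48h, where it had 6.80, 7.39 and 3.40 CPM against 2.15, 3.07 and 1.61 in control (1.35 ± 0.35, adjusted p = 0.00802).

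Of the unlisted loci, 30 met the naming rule in some comparison, and the 2 largest rises and 2 largest falls stand for them. ONT.10479 had 29.6, 29.8 and 43.4 CPM at 12Gy_48h, 83.1, 95.3 and 96.3 at 12Gy_24h, 34.5, 40.5 and 28.9 at 4Gy_48h, and 24.1, 18.7 and 12.6 in control. It rose by 0.88 ± 0.21 (adjusted p = 0.00483), 2.30 ± 0.21 (adjusted p = 1.99e-07) and 0.90 ± 0.21 (adjusted p = 0.00808), and the 4Gy_48h call was lost with the scaling on annotated loci alone (0.75, adjusted p = 0.067). ONT.387, whose best match was the nucleosome assembly protein Nap1l1, had 28.9, 31.4 and 14.6 CPM at 12Gy_24h against 7.95, 1.28 and 5.36 in control (2.32 ± 0.39, adjusted p = 0.000125).

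ONT.9201 had 5.23, 5.35 and 2.88 CPM at 12Gy_48h, 1.06, 0.551 and 1.17 at 12Gy_24h, 2.34, 0.740 and 4.59 at 4Gy_48h, and 7.95, 9.47 and 7.23 in control. It fell at 12Gy_24h by 3.11 ± 0.49 (adjusted p = 6.14e-05) and at 4Gy_48h by 1.70 ± 0.40 (adjusted p = 0.00777). ONT.15234 had 0, 0.827 and 0.292 CPM at 12Gy_24h, 4 reads in all, against 3.65, 5.12 and 7.77 CPM and 66 reads in control (-3.77 ± 0.77, adjusted p = 0.000673). For both loci every irradiated library lay below every control library. Neither has a match in the deposited databases.

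**Figure D5:**
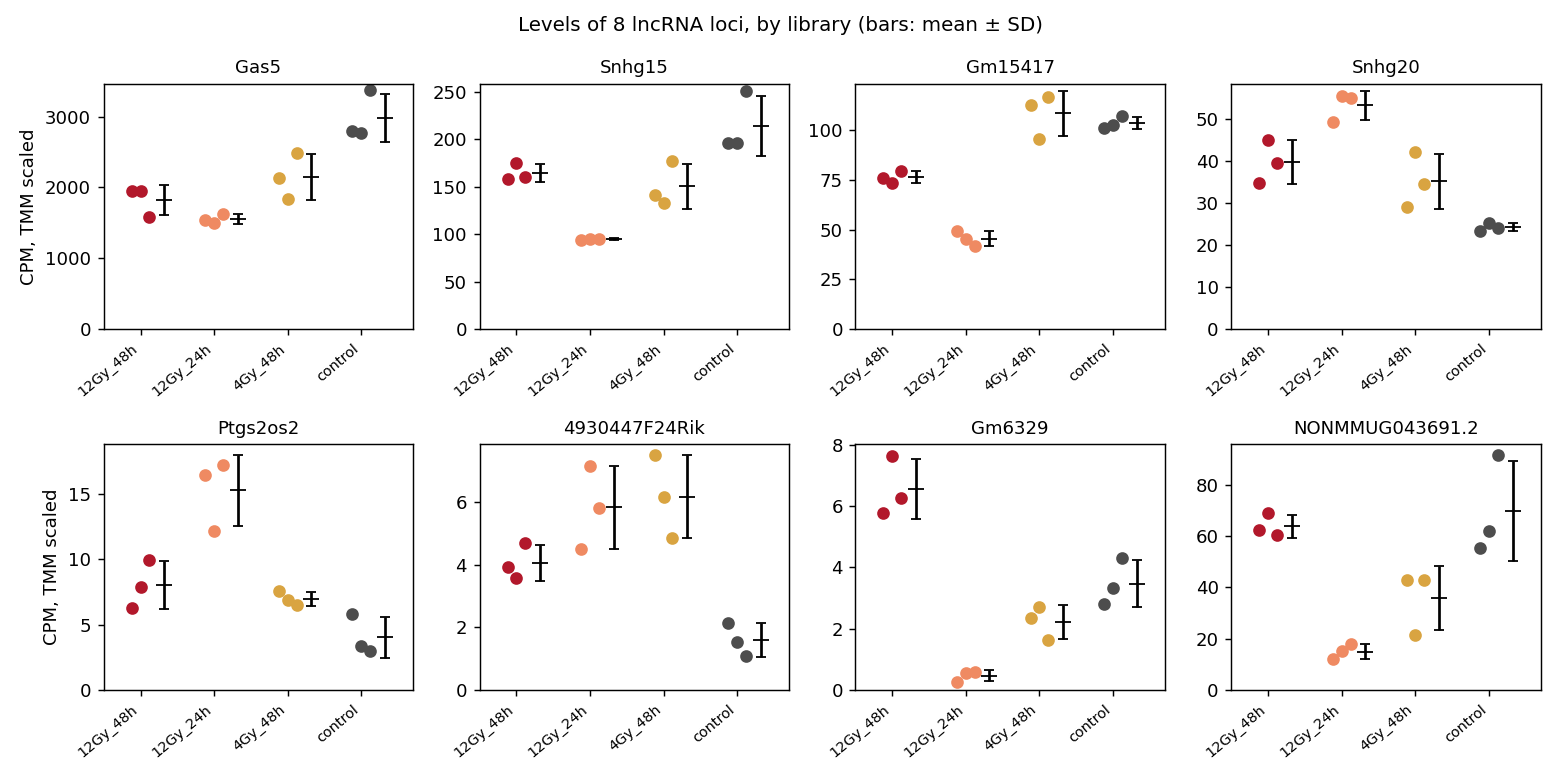
TMM-scaled CPM (vertical, from 0) of 8 lncRNA loci by group, with each library as a point and the mean ± SD beside it. Gas5 and Snhg15 are lower and Snhg20, Ptgs2os2 and 4930447F24Rik higher in every irradiated library than in control, Gm15417 is lowest at 12Gy_24h, and Gm6329 and NONMMUG043691.2 are lowest at 12Gy_24h with 12Gy_48h libraries at 5.76 to 7.64 and 60.4 to 69.0 CPM.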

How the data were processed

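Per the submitters' processing notes, reads were handled with cutadapt 1.9 and FastQC; aligner, counter, strand setting and genome build: not given in the sources used here, and these do not settle the sequencing platform. The authors deposited raw read counts per locus, with CPM values beside them; the deposited CPM equal counts over column totals within rounding and were not tested. Of 33636 lines, 11 that held overflow text were left out. The lncRNA types are the authors' own, with no account of how they were assigned in the sources used here.

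Counts went through edgeR 4.0.16 (R 4.3.3): TMM scaling, filterByExpr, 1 mean per group over all 12 libraries, the quasi-likelihood test and Benjamini-Hochberg adjustment over 15086 genes, checked on simulated counts. Levels are TMM-scaled CPM, which cannot be compared between loci per length. Shares were compared with exact two-sided permutation tests. DESeq2 1.42.0, RLE scaling, other filters, scaling on annotated loci alone, a replicate block and leaving out each library were alternatives. Intervals and tests cover these libraries only.

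Positions come from GENCODE M21 (GRCm38) by Ensembl identifier, found for the 29 named loci that carry one, and sequences from RefSeq by symbol. Text names loci by rule: in each of 5 comparisons the 6 largest called rises and falls without overlap and with at least 5 CPM in the higher group, the 15 most abundant, and all tested list members, with at most 2 rises and 2 falls among loci known by a number only. The loci and lists were chosen with earlier results of these data known.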

Additional observations from a re-analysis of the deposited data

Results flagged for a closer look

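Named loci are given here where the change differed between harvest times or doses by the test of that difference, the changes against control were of opposite sign, and at least 1 of them was called. Between the harvest times after 12 Gy these were 4 loci. Gm6329 was higher at 12Gy_48h than at 12Gy_24h by 3.74 on the log2 scale, and called in both directions against control. AL805899.1, Ptprtos and 4930478M13Rik had log2 changes of -1.71, -1.55 and -1.89 between the times. Their changes against control were called at 12Gy_24h alone. At 12Gy_48h they were -0.11 (edgeR adjusted p = 0.829), -0.40 (adjusted p = 0.471) and -0.61 (adjusted p = 0.206), so those signs are not established.

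Between doses at 48 h, 3 loci met the same terms. Gm6329 was higher at 12Gy_48h than at 4Gy_48h by 1.54 on the log2 scale, and Gm15417 and Snhg5 had log2 changes of -0.50 and -0.55. None of the 3 was called at 4Gy_48h against control.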

How the results depend on the processing

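No called value turned its direction under the alternatives run, and the sign of the share changed only for the small difference between 12Gy_48h and 4Gy_48h. Scaling on annotated loci alone gave 16, 31 and 1 lncRNA loci higher at 12Gy_48h, 12Gy_24h and 4Gy_48h against control, and 10 lower at 12Gy_48h against 4Gy_48h. Without a filter on low counts, 104 were higher at 12Gy_24h and 18 at 4Gy_48h against control, and 17 higher and 10 lower at 12Gy_48h against 4Gy_48h. DESeq2 called 6 higher and 29 lower at 4Gy_48h. With a replicate block, 7 were higher and 3 lower at 12Gy_48h against 4Gy_48h. No strong effect shared by replicate number was seen (1 of 18 same-number correlations over 0.1, range -0.111 to 0.125). These correlations cannot show that libraries of the same number were handled apart. The lncRNA share was also taken over the reads of all rows but those of type New_gene, so with unlisted lncRNA loci kept. It then differed by -0.644, -1.32 and -0.639 percentage points from control at 12Gy_48h, 12Gy_24h and 4Gy_48h. It differed by 0.676 between 12Gy_48h and 12Gy_24h, and by -0.0052 between 12Gy_48h and 4Gy_48h. Without the most abundant locus, the last 2 differences were 0.267 and -0.0404.

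Leaving out 1 library gave 23 to 35 higher and 45 to 75 lower at 12Gy_48h against control, the 45 without control replicate 3. At 12Gy_24h against control it gave 63 to 72 higher and 75 to 103 lower. At 4Gy_48h against control it gave 4 to 11 higher and 23 to 60 lower: 6 higher and 29 lower after omission of control replicate 2, 4 and 23 of control replicate 3, 4 and 26 of 4Gy_48h replicate 2, and 5 higher of 4Gy_48h replicate 1. At 12Gy_48h against 12Gy_24h it gave 33 to 60 higher, the 33 without 12Gy_48h replicate 2, and 48 to 64 lower. At 12Gy_48h against 4Gy_48h each of the 6 omissions lowered the counts, to 0 to 6 higher and 0 to 3 lower. The share difference between those groups was -0.0144 to 0.0938 percentage points. Loci at a few CPM, such as Trp53cor1, give wide errors, and a change not called there is not shown to be absent.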
